A study of Mus musculus with 4 samples.

Results

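Polycomb proteins keep genes silent through development, and the expression of 9 of their genes was followed here across fetal and adult haematopoietic stem cell (HSC)-enriched cells. The genes were *Ezh1*, *Ezh2*, *Eed* and *Suz12*, which encode Polycomb repressive complex 2 (PRC2), and *Ring1*, *Bmi1*, *Cbx2*, *Cbx7* and *Cbx8*, which encode subunits of Polycomb repressive complex 1 (PRC1). They were taken by name, and all 9 were found among the 23906 gene symbols of the RNA-sequencing tables.

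The cells were LSK-SLAM cells, sorted for absence of lineage markers, presence of Sca1 and cKit and a SLAM profile (CD150-positive, CD48-negative). They came from *BRE-GFP* transgenic mice, in which a BMP-responsive element drives GFP, so that GFP+ cells were BMP-activated and GFP- cells non-BMP-activated at the moment of isolation. Fetal liver (FL) at embryonic day 14 and adult bone marrow (BM) each gave 1 GFP+ and 1 GFP- sample, 4 in all, and all 4 carried the reporter with no other allele or agent named. No condition had a replicate, and the sources used here do not give the number of embryos or mice pooled in a sample. The labels call the BM donors adult and give no age for these samples. Sample identity was taken from the deposited labels, and plots of the study appear to order the samples differently for some genes.

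As background, PRC2 methylates histone H3 on lysine residues through EZH1 or EZH2, and EED and SUZ12 are needed for its activity. PRC1 ubiquitylates histone H2A through RING1 or RNF2. Its PCGF subunit, of which BMI1 is one, shapes the complex, and its CBX subunit reads the methyl mark left by PRC2. In the blood system, EZH2 is known for its role in FL haematopoiesis, EZH1 for maintenance of adult HSCs, and BMI1 for HSC self-renewal through repression of the *Cdkn2a* locus.

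Values are FPKM, sequenced fragments divided by the length of the transcript and by the depth of the library, which the authors normalized across the samples. They allow levels of different genes to be compared per length. A difference was counted when the FPKM of one sample was over 2 times that of another, and a gene followed the 2-fold rule for tissue when this held in both GFP fractions, or for GFP when it held in both tissues. The rule is a threshold with no test, since the error of a single FPKM is unknown. Background shares refer to the 13609 genes that reached an FPKM of 1 in any sample.

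The libraries differed beyond the Polycomb genes. From 12372 genes in FL GFP+ to 17345 in BM GFP- cells had an FPKM above 0. All 8 fetal markers listed (such as *Lin28b* and *H19*) were higher in both FL samples than in both BM samples, against 19.9% of all genes. This fits the tissue labels. The FPKM of these markers summed to 544 and 181 in FL but to 6.99 and 6.88 in BM. Of 5 BMP response genes, 3 were higher in GFP+ than in GFP- cells in FL and 5 in BM. Of the 13609 background genes, 6474 were higher in GFP+ cells in FL and 6950 in BM. *Id1* stood at 109 against 56.5 in FL and at 70.4 against 17.5 in BM. In FL, *Id3* was level (96.6 against 97.03) and *Smad7* was lower in GFP+ cells (0 against 0.489). These genes thus gave little check of the GFP labels of FL. Both BM samples had higher summed levels of neutrophil, B cell and erythroid markers than both FL samples. Whether mature cells or progenitors carried this RNA was not tested. The neutrophil markers include *Mpo* and *Elane*, primary granule genes of myeloid progenitors too, at 4754 and 3042 in BM GFP- cells. The 8 neutrophil markers summed to 154 to 354 in FL, but to 60179 (GFP+) and 14609 (GFP-) in BM, and the 7 B cell markers to 43.5 to 96.3 against 3386 and 895. All 8 and all 7 of these genes were higher in both BM samples than in both FL samples, against 26.2% of all genes. The 8 erythroid markers found summed to 881 to 922 in FL and to 20315 (GFP+) and 2772 (GFP-) in BM. Of these genes, 5 were higher in both BM samples than in both FL samples, against the same 26.2%. *Hbb-b1* alone made up most of the BM sums, with 14659 (GFP+) and 2042 (GFP-). Of 10 LSK-SLAM identity genes, 9 were lowest in BM GFP+ cells, an order whose share over all genes was not counted. The exception, *Ly6a* (Sca1), was highest there (286 against 19.7 to 146). *Procr*, an HSC surface receptor, was listed at 0 in BM GFP+ cells and had an FPKM of 60.8 to 113 in the other samples, and *Kit* stood at 22.2 there against 76.6 to 150. In FL GFP+ cells 8 hepatocyte markers summed to 452, against 54.6 to 79.8 in the other samples. These levels move with both tissue and GFP status, and their part in the results below was not tested. In such bulk samples, fewer cells of a type and less RNA per cell cannot be told apart.

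Of the PRC2 genes, the methyltransferase genes differed in pattern. *Ezh1* varied widely and *Ezh2* hardly at all. The promoters of these genes and of *Cbx7*, which followed *Ezh1* in direction between fractions, are shown for comparison (RefSeq, GRCm38.p6, from 250 bases before to 50 after the transcript start, 5′ to 3′ on the gene's strand). Capitals mark the letters of searched motifs. These were the E2F motif (TTTCCCGC, TTTGGCGC, TTTCGCGC or TTTGCCGC), bound by cell cycle factors, and the GC-rich Smad motif (GGCGCC), bound by the transcription factors of BMP signalling, each on both strands. *Ezh1* lies at chr11:101226414-101226713, *Ezh2* at chr6:47594981-47595280 and *Cbx7* at chr15:79932597-79932896, all on the minus strand.
*Ezh1*: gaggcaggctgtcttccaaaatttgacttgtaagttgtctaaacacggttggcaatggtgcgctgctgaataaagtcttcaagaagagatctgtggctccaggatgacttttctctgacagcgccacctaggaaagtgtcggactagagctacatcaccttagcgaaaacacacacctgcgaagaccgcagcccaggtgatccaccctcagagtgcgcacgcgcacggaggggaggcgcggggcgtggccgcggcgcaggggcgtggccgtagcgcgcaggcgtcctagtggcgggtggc
*Ezh2*: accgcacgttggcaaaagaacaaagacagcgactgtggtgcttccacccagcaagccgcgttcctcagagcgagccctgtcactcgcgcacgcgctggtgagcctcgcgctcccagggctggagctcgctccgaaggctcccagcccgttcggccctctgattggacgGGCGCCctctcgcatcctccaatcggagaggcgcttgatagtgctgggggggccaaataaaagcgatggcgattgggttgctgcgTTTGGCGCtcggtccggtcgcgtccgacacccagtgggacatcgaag
*Cbx7*: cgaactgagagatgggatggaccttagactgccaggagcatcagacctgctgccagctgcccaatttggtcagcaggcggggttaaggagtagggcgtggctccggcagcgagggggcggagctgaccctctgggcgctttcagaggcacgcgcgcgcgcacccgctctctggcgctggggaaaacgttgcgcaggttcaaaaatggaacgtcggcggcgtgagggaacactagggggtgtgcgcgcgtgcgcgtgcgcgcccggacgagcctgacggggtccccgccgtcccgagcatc

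The *Ezh2* promoter held 1 match to the E2F motif, TTTGGCGC at position 3 counted from the start, and 1 to the Smad motif at position -82, with no letters in common. *Ezh1* and *Cbx7* held neither motif. Over the 32851 promoters of the table, 2.26% held the E2F letters and 11.9% the Smad letters. Promoters of 8 of the 9 genes were matched, the exception being *Cbx2*. Besides *Ezh2*, *Suz12* held the E2F letters at position -219, and *Bmi1* and *Ring1* held the Smad letters at positions -51 and 28, so that *Eed* and *Cbx8* joined *Ezh1* and *Cbx7* with no match. The 8 promoters were rich in GC, with a median of 66.2% against 52.7% over all promoters, and held a median of 27.5 CpG against 7. A match of letters is a description and does not show binding.

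*Ezh1*, the methyltransferase gene of non-dividing and adult cells, was listed at 0 (GFP+) and at an FPKM of 11.3 (GFP-) in FL, and at 29.6 (GFP+) and 12.6 (GFP-) in BM. Both BM samples were thus above both FL samples, but the GFP- samples of the tissues lay within 1.12-fold of each other. At equal FPKM totals and at an equal upper quartile FL GFP- lay above BM GFP- cells (1.20038-fold and 1.00083-fold), and the tissues overlapped. Within BM, *Ezh1* was 2.34-fold higher in GFP+ cells, while within FL the GFP+ sample was the one at 0. No fold is given against a listed 0. Among the 3876 genes within 2-fold of the *Ezh1* level in FL GFP- cells, 250 (6.45%) were also listed at 0 in FL GFP+ cells. None of 72 ribosomal protein genes and 21 housekeeping genes were. These were picked as broadly expressed genes and do not bear on detection at the *Ezh1* level.

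*Ezh2*, the methyltransferase gene of dividing cells, had an FPKM of 36.0 (GFP+) and 28.6 (GFP-) in FL and of 39.1 (GFP+) and 32.6 (GFP-) in BM. The highest sample was 1.37-fold above the lowest. Both GFP+ samples were above both GFP- samples, by 1.26-fold in FL and 1.199-fold in BM, and *Ezh2* was the sole one of the 9 genes with that order, which 12.8% of all genes had. With the samples scaled to equal FPKM totals, the BM difference of *Ezh2* took the other sign, as did its small tissue differences (1.09-fold and 1.14-fold higher in BM as deposited). The 16 proliferation genes summed to FPKM of 1767 to 2025, but single ones differed more, *Plk1* from 13.4 to 105 and *Mki67* from 7.45 to 30.6, both highest in BM GFP+ cells. *Ezh2* transcripts exceeded those of *Ezh1* per length in every sample, by 1.32-fold in BM GFP+ cells and by 2.54-fold and 2.58-fold in the GFP- cells of FL and BM.

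*Eed*, whose WD-repeat protein binds the methyl mark and stimulates the enzyme, had an FPKM of 26.9 (GFP+) and 21.9 (GFP-) in FL and of 18.4 (GFP+) and 29.992 (GFP-) in BM. The tissues overlapped, and the largest difference was 1.63-fold, between the BM fractions. *Suz12*, the scaffold of PRC2, was lower than *Ezh2* and *Eed* in every sample, with an FPKM of 3.40 (GFP+) and 7.81 (GFP-) in FL and of 4.62 (GFP+) and 2.49 (GFP-) in BM. Its highest level was in FL GFP- cells, 2.30-fold above FL GFP+ and 3.14-fold above BM GFP- cells. In BM the order of the fractions was the other way, GFP+ being 1.86-fold higher.

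**Figure D1:**
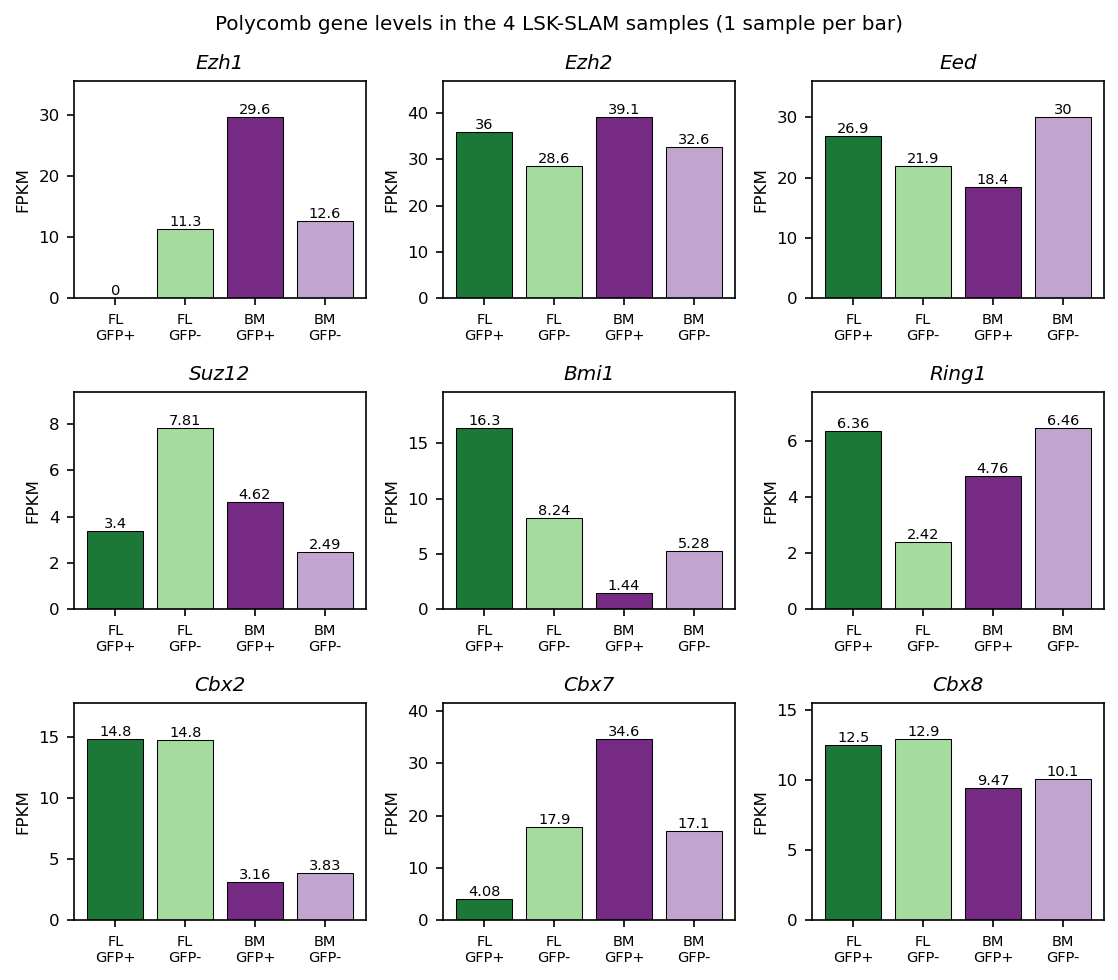
FPKM of the 9 Polycomb genes in the 4 samples (vertical axis FPKM from 0, 1 bar per sample), with no error bars because each condition had 1 sample. *Ezh2* stays between 28.6 and 39.1, whereas *Ezh1* goes from 0 in FL GFP+ to 29.6 in BM GFP+ cells and *Cbx7* from 4.08 to 34.6.

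Among the 9 genes, the PRC1 genes held the largest tissue difference that recurred in both fractions. This was *Cbx2*, and *Cbx7* and *Bmi1* differed between tissues only in the GFP+ fraction past 2-fold. *Cbx2*, which encodes a compacting CBX protein that functions in development, had an FPKM of 14.8 (GFP+) and 14.8 (GFP-) in FL and of 3.16 (GFP+) and 3.83 (GFP-) in BM. FL exceeded BM by 4.68-fold in GFP+ and by 3.86-fold in GFP- cells, and the fractions of a tissue lay within 1.21-fold of each other.

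*Cbx7*, whose product promotes self-renewal in adult HSCs, had an FPKM of 4.08 (GFP+) and 17.9 (GFP-) in FL and of 34.6 (GFP+) and 17.1 (GFP-) in BM. The extremes were the GFP+ samples, BM being 8.49-fold above FL, and the GFP- samples were level at 1.05-fold. GFP+ cells were 4.40-fold below GFP- cells in FL and 2.03-fold above them in BM. *Cbx8*, which encodes another CBX reader, was among the steadiest genes, with an FPKM of 12.5 (GFP+) and 12.9 (GFP-) in FL and of 9.47 (GFP+) and 10.1 (GFP-) in BM. Both FL samples were above both BM samples, but by 1.32-fold and 1.28-fold.

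*Cbx2* and *Cbx8* are neighbours on mouse chromosome 11, 5034 bases apart (NCBI37/mm9, GENCODE vM1 annotation). *Cbx2* lies at chr11:118884276-118892584 on the plus strand and *Cbx8* at chr11:118897619-118902283 on the minus strand. *Cbx7* is elsewhere, at chr15:79746237-79801549 on the minus strand, 81118 bases from *Cbx6*. The tissue difference of *Cbx2* was thus not matched in size by its neighbour *Cbx8*.

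*Lin28b*, which blocks maturation of the let-7 microRNAs in fetal cells, had an FPKM of 2.57 and 5.96 in FL and of 0.044 and 0.059 in BM. The members of the let-7 family share a seed, bases 2 to 8, given in capitals in these mature sequences (RefSeq).
mmu-let-7a-5p: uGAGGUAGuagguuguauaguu
mmu-let-7g-5p: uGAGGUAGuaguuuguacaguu
mmu-miR-98-5p: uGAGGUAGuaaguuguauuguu
The complement of the seed, CTACCTC, occurred in the 3′ untranslated region (the longest one annotated) of *Cbx2* and of none of the other 8 genes, and 8.81% of 19915 genes held it. The site is shown with the complement in capitals (NCBI37/mm9, chr11:118890586-118890610, plus strand). It starts at base 118 of the 2100 bases of the region.
*Cbx2* site: tggcttcctgctgattCTACCTCtc
Mature let-7 was not measured in these samples, and a seed match does not show regulation.

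*Ring1*, an E3 ligase gene, had an FPKM of 6.36 (GFP+) and 2.42 (GFP-) in FL and of 4.76 (GFP+) and 6.46 (GFP-) in BM. FL GFP- was the low sample, 2.63-fold below FL GFP+ and 2.68-fold below BM GFP- cells. *Bmi1*, the PCGF gene best known in HSCs, had the widest fold range of the genes with no listed 0, with an FPKM of 16.3 (GFP+) and 8.24 (GFP-) in FL and of 1.44 (GFP+) and 5.28 (GFP-) in BM. FL GFP+ was 11.3-fold above BM GFP+, while FL GFP- was 1.56-fold above BM GFP- cells. Between fractions *Bmi1* was 1.98-fold higher in GFP+ cells in FL and 3.66-fold lower in BM. *Bmi1* was low in the BM GFP+ sample, the one with the highest neutrophil, B cell and erythroid marker sums and the lowest *Kit*, and the part of these in the value was not tested.

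Read over the set, 1 of the 9 genes, *Cbx2*, followed the 2-fold rule for FL above BM, which 7.86% of all genes did. None followed it for BM above FL, against 12.2%. For GFP, none of the 9 was over 2-fold higher in GFP+ cells in both tissues (3.26% of all genes) or in GFP- cells in both (8.98%). The split of these calls moved with the scale. Over all genes 1070 were higher in FL and 1655 in BM as deposited, against 1931 and 1197 at equal FPKM totals, and the GFP rule took in 443 (GFP+) and 1222 (GFP-) genes, against 247 and 1664. In single comparisons, 2 genes (*Bmi1*, *Cbx2*) were over 2-fold higher in FL in the GFP+ fraction (24.1%) and 2 (*Ezh1*, *Cbx7*) were over 2-fold higher in BM (32.1%). In GFP- cells 2 (*Suz12*, *Cbx2*) were higher in FL (19.2%) and 1 (*Ring1*) in BM (20%). Between fractions, 1 gene (*Ring1*) was over 2-fold higher in GFP+ cells in FL (16.6%) and 3 (*Ezh1*, *Suz12*, *Cbx7*) in GFP- cells (28%). In BM 2 (*Ezh1*, *Cbx7*) were higher in GFP+ (19.7%) and 1 (*Bmi1*) in GFP- cells (22.9%). The share of the 9 genes past these thresholds was thus near the background, with few genes to judge by.

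*Ezh1* and *Cbx7* were over 2-fold higher in GFP- cells in FL and over 2-fold higher in GFP+ cells in BM, a pattern that 6.96% of all genes had. The BM difference was near the threshold. At equal FPKM totals it was 1.71-fold for *Ezh1* and 1.48-fold for *Cbx7*, so that neither kept the pattern, and at an equal upper quartile *Cbx7* lost it at 1.89-fold. No gene of the 9 was over 2-fold apart in opposite directions between tissues (6.86% of all genes), and none had both GFP- samples above both GFP+ samples (15.2%). *Ezh2*, *Eed* and *Cbx8* stayed under 2-fold in each of the 4 comparisons, as 23.3% of all genes did. At equal FPKM totals *Eed* and *Cbx8* passed 2-fold for FL over BM in GFP+ cells (2.26-fold and 2.04-fold), and *Eed* was 2.24-fold lower in GFP+ cells in BM. Both FL samples were above both BM samples for 3 genes, *Cbx2*, *Cbx8* and *Bmi1* (19.9% of all genes), and the reverse held for 1, *Ezh1* (26.2%), as deposited but at neither other scale. At equal FPKM totals *Ezh2* and *Suz12* joined the first 3. The median log2(FPKM + 1) ratio of FL over BM was 0.35 in GFP+ and 0.07 in GFP- cells over the 9 genes, against -0.03 and -0.03 over all genes. That of GFP+ over GFP- was 0.00 in FL and -0.08 in BM, against 0 and 0.03. The comparisons share samples, and their values are set side by side only.

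With the tissues treated as the samples of a GFP contrast and the fractions as those of a tissue contrast, limma on log2(FPKM + 1) could be fitted to 11707 genes, with 1 residual degree of freedom. It called 34 genes higher in FL (0.29%) and 254 higher in BM (2.17%), and 5 higher in GFP+ (0.0427%) and 8 higher in GFP- cells (0.0683%), at an adjusted p under 0.05. At equal FPKM totals these were 48 and 160 for tissue and 3 and 8 for GFP. None of the 9 genes was among them. At an unadjusted p under 0.05, none of the 9 was called for tissue or for GFP, while 2014 and 732 of the 11707 genes were. For *Cbx2* the log2 difference of FL minus BM was 1.82 (SE 0.857, limma adjusted p = 0.325). For *Ezh1* it was -2.54 (SE 1.18, limma adjusted p = 0.320), a value that depends on the pseudocount because 1 sample is listed at 0. *Bmi1* had 1.69 (SE 0.968, limma adjusted p = 0.416) and *Cbx7* -1.37 (SE 0.832, limma adjusted p = 0.443). These SEs also draw on other genes of similar level. The FL over BM log2 ratios of *Cbx2* were close, 1.925 in GFP+ and 1.71 in GFP- cells. For the GFP contrast, limma adjusted p values of the 9 genes ran from 0.970 to 0.996. An exact two-sided permutation test of 2 samples against 2 cannot go below p = 0.333.

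Shares of a subunit within a sample do not depend on the scaling between samples. *Cbx2* made up 36.2% (GFP+) and 22.3% (GFP-) of the FPKM summed over 4 CBX genes (*Cbx2*, *Cbx6*, *Cbx7* and *Cbx8*) in FL, but 5.59% (GFP+) and 9.77% (GFP-) in BM. *Cbx7* made up 9.98% and 27.03% in FL against 61.1% and 43.6% in BM. The mean of the FL samples was thus 21.6 percentage points above BM for *Cbx2* and 33.9 points below it for *Cbx7* (FL minus BM, -33.9). In GFP- cells the FPKM of *Cbx7* itself was level, 17.9 in FL and 17.1 in BM. There its share differed because the CBX sum did, 66.3 in FL and 39.2 in BM. The *Cbx2* and *Cbx7* shares did not overlap between tissues, and neither did that of *Cbx6*. The ratio of *Cbx7* to *Cbx2* was 0.275 and 1.21 in FL against 10.9 and 4.46 in BM. *Cbx6* shares all its values with *Nptxr* and *Npcd* and is therefore uncertain.

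Of the enzyme genes, *Ezh1* took 0% (GFP+) and 28.3% (GFP-) of the summed *Ezh1* and *Ezh2* in FL and 43.1% (GFP+) and 27.9% (GFP-) in BM, so that the GFP- samples differed little. *Bmi1* took 21.8% and 17.0% of 6 PCGF genes in FL and 2.78% and 7.52% in BM, again without overlap. Such a separation was common within these families. The shares of *Cbx6*, *Pcgf1*, *Pcgf2*, *Pcgf5*, *Ring1* and *Rnf2* did not overlap between tissues either. Those of *Ezh1*, *Ezh2*, *Cbx8*, *Pcgf3* and *Pcgf6* did. *Pcgf5*, a gene of variant PRC1, took the largest PCGF share in all 4 samples, 27.4%, 32.7%, 43.1% and 34.8% in the same order of samples. *Ring1* was the minor ligase gene in every sample, with 8.50% and 4.91% of *Ring1* plus *Rnf2* in FL and 18.6% and 16.001% in BM. *Rnf2* had FPKM of 68.5 and 46.8 in FL and of 20.8 and 33.9 in BM.

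**Figure D2:**
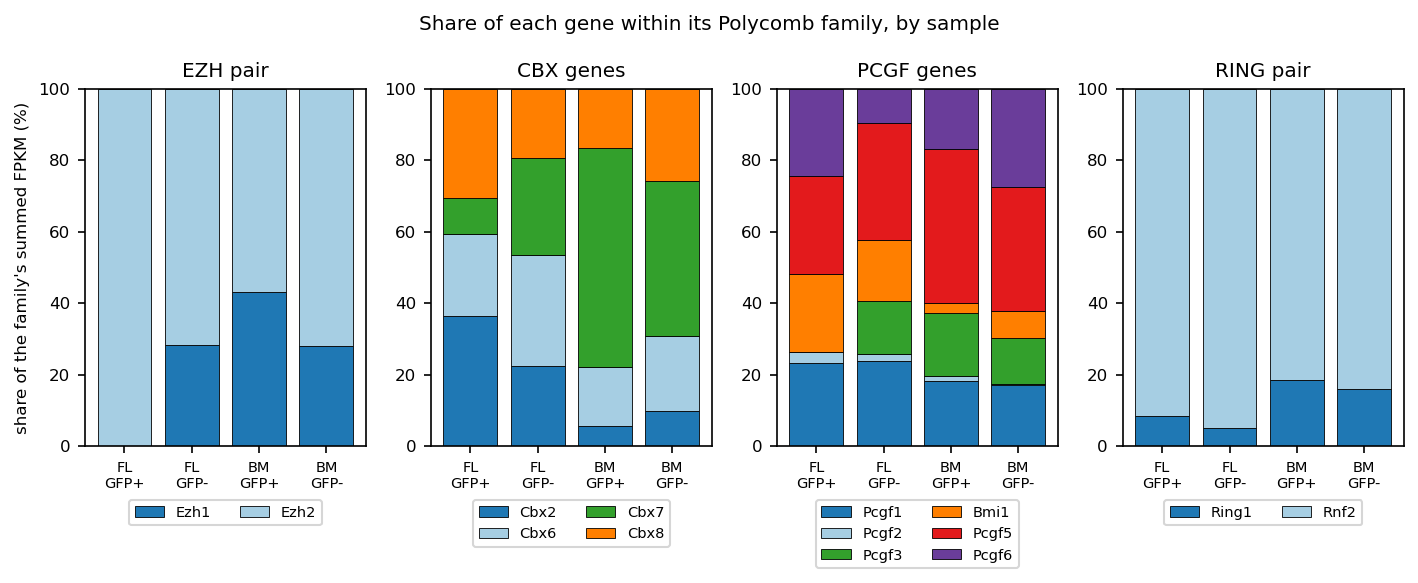
Share in percent of each gene in the summed FPKM of its family (EZH, CBX, PCGF and RING) in each of the 4 samples. In the CBX family the *Cbx2* share is 36.2% and 22.3% in FL and 5.59% and 9.77% in BM, and the *Cbx7* share is the larger one in BM.

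The remaining 35 genes of the Polycomb lists (accessory subunits, other PRC1 genes, opposing enzymes and target cyclin-dependent kinase inhibitors) served as the setting of the 9. The 2-fold rule for FL above BM took in 4 of them, *Phf19*, *Pcgf2*, *Phc1* and *Cdkn1c*, and for BM above FL 1, *Cdkn2c*, against 7.86% and 12.2% of all genes. *Phf19*, which recruits PRC2 to chromatin, had FPKM of 33.5 and 13.98 in FL against 3.88 and 1.09 in BM, in the order GFP+ and GFP-. It was 8.63-fold higher in FL in GFP+ cells and 12.8-fold higher in GFP- cells. *Phc1*, a PRC1 polymerization subunit, had FPKM of 13.03 and 17.5 in FL and 6.06 and 6.02 in BM. *Cdkn2c*, a cell cycle inhibitor gene, was listed at 0 in both FL samples and at 8.89 and 3.9998 in BM.

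For GFP, 3 of the 35 were over 2-fold higher in GFP+ cells in both tissues (*Aebp2*, *Phf19* and *Pcgf2*) and 3 in GFP- cells (*Scmh1*, *Asxl3* and *Cdkn2b*), against 3.26% and 8.98% of all genes. *Aebp2*, an accessory subunit of PRC2, had FPKM of 11.4 (GFP+) and 0.745 (GFP-) in FL and of 5.88 (GFP+) and 0.363 (GFP-) in BM, 15.3-fold and 16.2-fold higher in GFP+ cells. *Pcgf2*, a paralogue of *Bmi1*, had low FPKM of 2.32, 0.927, 0.717 and 0.247 in the same order. *Scmh1*, a PRC1-associated gene, was 2.005-fold and 9.53-fold higher in GFP- cells, and *Asxl3* and *Cdkn2b* stayed under an FPKM of 1, outside the genes of the background, which took in 32 of the 35. *Cdkn2a*, the classical target of BMI1, was listed at 0 in all 4 samples, as were 5046 other symbols. Its values therefore give no reading of any relation to *Bmi1*.

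Among the 40 listed Polycomb genes that limma could test, including the 9, none was called for tissue or GFP at an adjusted p under 0.05. An unadjusted p under 0.05 was found for 4 (tissue) and 1 (GFP) of the 40, against 2014 and 732 of all 11707 genes tested. *Cdkn2c* had the smallest tissue limma adjusted p at 0.116, *Phf19* followed at 0.143 and *Bap1*, a deubiquitylase gene that opposes PRC1, at 0.197. Of the 32 listed genes that reached an FPKM of 5 in FL GFP- cells, 5 were below 0.2 in FL GFP+ cells (*Ezh1*, *Pcgf3*, *Rybp*, *Yaf2* and *Asxl1*), where 6.25% of all such genes were. In the other 3 samples none of the listed genes was that low by the same measure. Over all genes this share was also lower there, at 1.82% (FL GFP-), 2.93% (BM GFP+) and 1.05% (BM GFP-). These cutoffs and this count were chosen after the values had been seen.

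**Figure D3:**
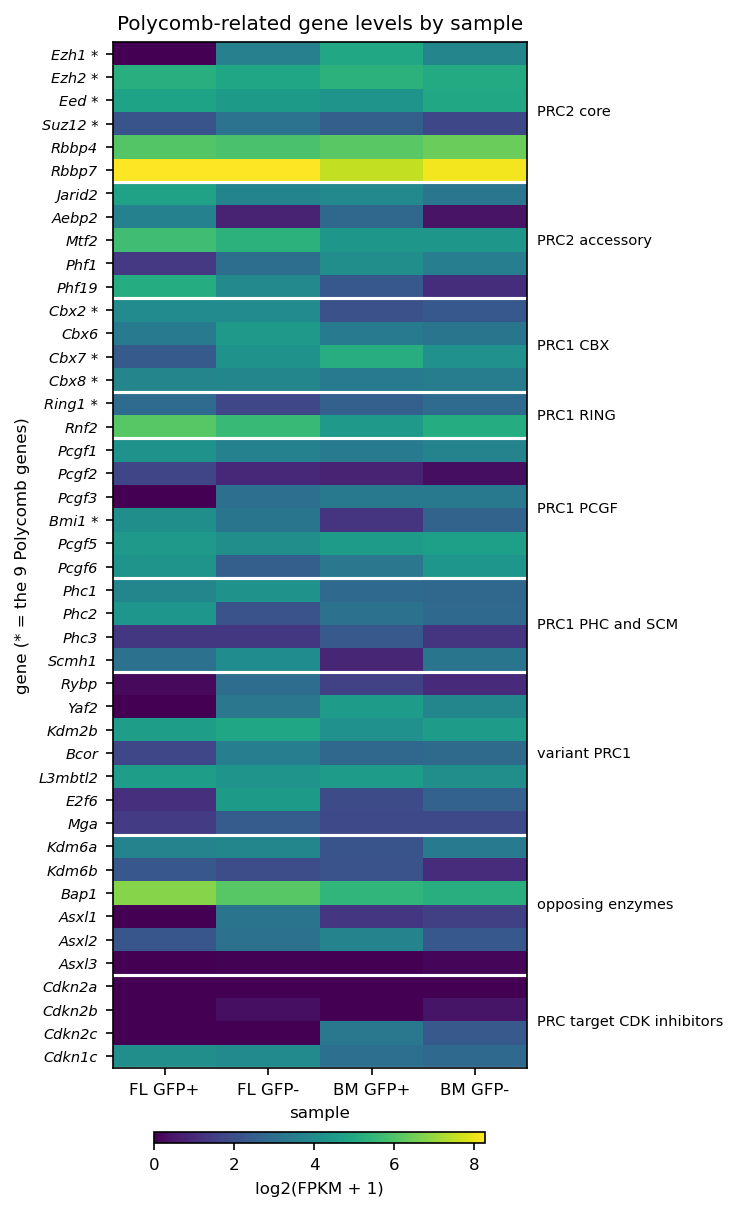
Log2(FPKM + 1) of the listed Polycomb genes in the 4 samples, grouped by complex, as a colour scale. *Ezh1*, *Pcgf3*, *Rybp*, *Yaf2* and *Asxl1* are at or near 0 in FL GFP+ cells, and *Phf19* and *Phc1* are higher in both FL columns.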

How the data were processed

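RNA of 4 samples of LSK-SLAM cells (FL and BM, GFP+ and GFP-) was amplified with the SMARTer protocol and sequenced. The deposited FPKM were made by the authors with TopHat and Cufflinks 2.2.1, passed through Cuffquant and scaled between samples by the geometric method of Cuffnorm. Their methods name NCBI37/mm9 and the submitters' processing notes mm10, so gene positions are given from the GENCODE vM1 annotation of NCBI37/mm9 and promoters from RefSeq (GRCm38.p6). The study gives read totals per library, but the values carry neither read counts nor errors. The depth behind a single FPKM is therefore unknown, and so is its precision. The 597 detected symbols with values identical to another symbol are not independent.

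The 2-fold rule, which the study states for GFP, was turned to the tissues too. limma 3.58.1 in R 4.3.3 used log2(FPKM + 1), genes that reached an FPKM of 1 in no fewer than 2 samples, the other factor as a block, eBayes with trend and Benjamini-Hochberg adjustment. The code was checked on simulated data with large shifts, little noise and the same shift in both pairs of samples. Such a check does not show how limma performs on these samples. With the other factor as a block and 1 sample per condition, the error of a gene in limma starts from how far its tissue difference varied between fractions. For GFP it is how far the GFP difference varied between tissues. Through eBayes with trend, this error is moderated toward that of other genes of similar level. An SE or p-value therefore does not show only how far the pairs of that gene differed. No spread between replicates enters the p-values. Python 3.11.15 with pandas 2.3.3, numpy 2.4.6, scipy 1.17.1 and matplotlib 3.10.9 did the rest. The genes named are the 9 genes, those of the lists that followed a 2-fold rule or share a family, and up to 3 genes of the most similar pattern, with a few more chosen after their values were seen. The members and lists were chosen with earlier results of these data known. The alternatives were other thresholds (1.5-fold and 4-fold), pseudocounts (0.1), filters and scales, limma without trend or block, and single pairs of samples. Some genes are not reported here, and the shares of the CBX family and the counts over the lists leave out 1 gene that the planned family held. Sequences of proteins were not used here.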

Additional observations from a re-analysis of the deposited data

Results flagged for a closer look

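In 7 genes of the Polycomb lists the pair of samples of one tissue or fraction differed past 2-fold in the direction opposite to the other pair. These differences rest on 1 sample per condition and were not tested. The log2(FPKM + 1) ratio of GFP+ over GFP- cells was higher in BM than in FL by 4.78 for *Ezh1*, where 1 sample is listed at 0, and by 2.88 for *Cbx7*. For *Pcgf6*, a PCGF gene of variant PRC1, the BM minus FL value was -2.81. Its FPKM were 18.3 (GFP+) and 4.72 (GFP-) in FL and 8.74 (GFP+) and 19.3 (GFP-) in BM, so that its FL over BM ratio was also higher in GFP+ than in GFP- cells, by 2.81. *Rybp*, a gene of variant PRC1, had FPKM of 0.159 (GFP+) and 6.75 (GFP-) in FL and 2.10 (GFP+) and 1.04 (GFP-) in BM, with a BM minus FL value of 3.35 and a GFP+ minus GFP- value of the FL over BM ratio of -3.35. For *Asxl2*, a gene of the deubiquitylase complex that opposes PRC1, the BM minus FL value was 2.32. The GFP+ minus GFP- value of the FL over BM ratio was -2.65 for *E2f6* and -2.92 for *Asxl1*, the latter with FL GFP+ listed at 0. The BM differences of *Ezh1* and *Cbx7* were under 2-fold at equal FPKM totals. Over all genes, GFP differences past 2-fold in opposite directions in FL and BM occurred in 11.9%. Tissue differences past 2-fold in opposite directions in GFP+ and GFP- cells occurred in 6.86%. Both patterns thus occurred widely, and nothing particular to the Polycomb lists follows from them.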

How the results depend on the processing

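The ratios of the 9 genes were recomputed as 108 alternative values. Those called past 2-fold could not reverse, since scaling shifted a log2 fold by 0.63 at most and a pseudocount keeps the sign. Of the uncalled ones, 8 took the other sign, 6 of them at equal FPKM totals and 2 at an equal upper quartile. Calls past 2-fold were nevertheless lost: the opposite GFP directions of 2 genes (*Ezh1* and *Cbx7*) held for 0 at equal totals and for 1 (*Ezh1*) at an equal upper quartile, a check chosen after seeing the data. Equal totals shifted every log2 fold by 0.63 and 0.43 (FL over BM, GFP+ and GFP-) and by -0.26 and -0.46 (GFP+ over GFP-, FL and BM). The cause of the differences listed here was not tested. Genes over 2-fold higher in FL (1070) became 1752 at 1.5-fold, 350 at 4-fold, 1931 at equal totals and 639 with FPKM + 1, and 2609 to 3276 in single pairs. Of the 9 genes, 1 became 2 (*Bmi1* and *Cbx2*) at 1.5-fold and at equal totals, 0 at 4-fold, and 2 in each single pair. Genes higher in BM (1655) became 1011 at 4-fold, 1197 at equal totals and 2721 to 4371 in single pairs, with 1 to 2 of the 9 genes. Genes higher in GFP+ cells (443) became 1033 at 1.5-fold, 115 at 4-fold, 247 at equal totals, 264 with FPKM + 1, and 2261 to 2677 in single pairs, with 1 to 2 of the 9. Genes higher in GFP- cells (1222) became 591 with FPKM + 1, 2465 without a filter, 1664 at equal totals and 3116 to 3804 in single pairs, with 1 to 3 of the 9. The tissue limma called 288 genes, but 0 without the trend, 176 without the block, 80 at a pseudocount of 0.1, 189 without a filter and 0 to 95 when 1 sample was left out. The GFP limma called 13, but 0, 4 and 1 in the first 3 of these settings and 0 to 62 with 1 sample left out. None of the 9 genes was called in any of these. Leaving out 1 sample leaves a lone sample that is assumed to vary like the others. The *Cbx2* share difference was 30.3 points over *Cbx2*, *Cbx7* and *Cbx8* alone. No paired analysis was possible because the labels number no replicates, and the block in limma was the other factor, tissue or fraction. With 1 sample per condition and no read counts, a low FPKM and an absent transcript could not be told apart.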

Other observations

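The genes whose pattern over the 4 samples was nearest to a Polycomb gene were sought among 8601 genes with a mean FPKM of at least 5, by the root mean square difference of log2(FPKM + 1), each centred on its mean. For *Ezh1* they were *Atg4a* (0.0795), *Tec* (0.106) and *Cd200* (0.116). For *Cbx7* they included *Ugp2* (0.0939) and *Zfp426* (0.0952), for *Cbx2* they were *Prpf40b* (0.0483), *Wdr6* (0.0824) and *Dsn1* (0.0971), and for *Ezh2* *Ap5s1* (0.0165), *Fkbp8* (0.0223) and *Bysl* (0.0281). Likeness over 4 samples is a description, and nothing about shared function or control follows from it.

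Other PRC2 genes were read in the same way. *Jarid2* had FPKM of 26.5 and 12.3 in FL and of 13.9 and 8.51 in BM, in the order GFP+ and GFP-. The tissues overlapped for this accessory gene. *Mtf2*, another, had 52.2 and 39.0 in FL and 19.95 and 20.04 in BM, with both FL samples above both BM samples. The histone-binding core subunit gene *Rbbp4* had 58.99 to 81.7 over the 4 samples, a range of 1.38-fold.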
